A study of Mus musculus with 9 samples.

Results

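The genes described here serve the endoplasmic reticulum, the compartment in which secreted and membrane proteins are made and folded. They are 44 genes of the 55450 counted, chosen by name from knowledge of the secretory pathway and with earlier results of these data known. They were placed in 4 steps, with 14 genes of translocation, 16 of folding, 9 of the stress response and 5 of export. Transcript levels were compared between Rathke's pouch, the embryonic fold that gives rise to the anterior and intermediate lobes of the pituitary gland, and the adult gland. The embryonic group was 7 Sox2 Egfp/+ embryos at e13.5, which carry a green fluorescent protein allele of the progenitor gene *Sox2*. The adult group was 2 mice at postnatal week 8, whose glands were taken without the posterior lobe and whose genotype is not given in the labels. All animals were of the mixed 129Sv/c57BL6J background, and each group held both sexes, which are not given for single samples. The methods of the study name no sorting of cells from the dissected pouch or gland, so a library could hold every cell type of the piece of tissue.

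Proteins destined for secretion enter the endoplasmic reticulum through the Sec61 channel, lose their signal peptide to signal peptidase, and are folded by chaperones and by enzymes that form disulfide bonds. Sensors in its membrane respond to unfolded protein by raising the expression of chaperone and degradation genes, while folded cargo leaves in vesicles coated with COPII proteins and escaped residents are brought back by KDEL receptors. Endocrine cells of the adult pituitary are professional secretory cells that store large amounts of peptide hormone, whereas Rathke's pouch is mostly made of dividing progenitors.

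Depth was 16738863 to 28537311 read pairs counted on genes in the embryos, and 36421545 and 31191117 in adults 1 and 2. The 44 members were all among the 19371 genes tested, and each had at least 20 counts in every library, a minimum reached by *Ero1lb*. Levels are given as CPM, the usual depth-scaled read count, here with TMM factors, and per kb of the longest annotated transcript wherever the levels of different genes are compared. Differences are log2 fold changes of embryo over adult, so that a negative value is a higher level in the adult. A gene was called higher in a stage at an adjusted p under 0.05 from the quasi-likelihood test of edgeR, with Benjamini-Hochberg adjustment over all genes tested. These p-values measure the spread between single animals of each stage, and the spread among adults rests on 2 of them.

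Embryos 1 and 4 stood apart from the other embryos before any comparison of stages. Pairs counted on genes made up 59.7% and 62.8% of their libraries. That share was 73.9% to 80.0% for embryos 2, 3, 5, 6 and 7, and 84.0% and 83.7% for adults 1 and 2. The 7 red blood cell markers, of which *Hbb-y* was the most abundant per kb in each embryo and *Hbb-bs* in each adult, summed to 169309 CPM in embryo 1 and 212275 CPM in embryo 4, against a range of 6067 to 18878 CPM over the remaining embryos and 763 and 1977 CPM in adults 1 and 2. Both libraries lay above all other embryos for *Sec61g*, *Sec62*, *Sec63* and *Ssr4*, which are 4 members (9.09%, against 11.4% of all genes tested). They lay below all other embryos for 11 members (25.0%, against 15.7%), which were *Sec61a1*, *Spcs3*, *Hspa5*, *Calr*, *Pdia4*, *Pdia6*, *Dnajb11*, *Hyou1*, *Atf6*, *Sec23b* and *Sec24d*. The part of red blood cells in these values was not tested, and log2 fold changes of these genes are given with and without both libraries, here for *Sec61a1* (−0.25 and −0.10), *Spcs3* (−0.97 and −0.78), *Calr* (−0.34 and −0.21), *Hyou1* (−1.79 and −1.52), *Pdia4* (0.17 and 0.39), *Pdia6* (−0.10 and 0.10), *Dnajb11* (−0.16 and −0.03) and *Sec23b* (−0.39 and −0.20), and for the others where they are described. Of these 8, *Spcs3* and *Hyou1* were called, both with and without the libraries.

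The chaperone genes *Hspa5* and *Hsp90b1*, the stress sensor genes *Ern1* and *Eif2ak3* and the oxidase gene *Ero1lb* were higher in the adult gland, while *Sec61g*, a small subunit of the entry channel, was higher in the embryo. Of the 44 members, 21 were called higher in the adult, against 27.4% of all genes tested, and 4 were called higher in the embryo, against 24.0%. The members higher in the embryo were *Sec61b*, *Sec61g*, *Ssr2* and *Kdelr3*, of which *Sec61g* alone was still called when counts were scaled by library size without TMM, or without adult 2. Past a fold change of 4, there were 9 members higher in the adult (14.6% of all genes) and 1 higher in the embryo (11.3% of all genes). All 7 embryos lay below both adults for 24 members (32.9% of all genes), above both adults for 6 (26.2% of all genes), and the groups overlapped for 14. The median log2 fold change over the members was −0.65, against −0.04 over all genes tested.

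**Figure D1:**
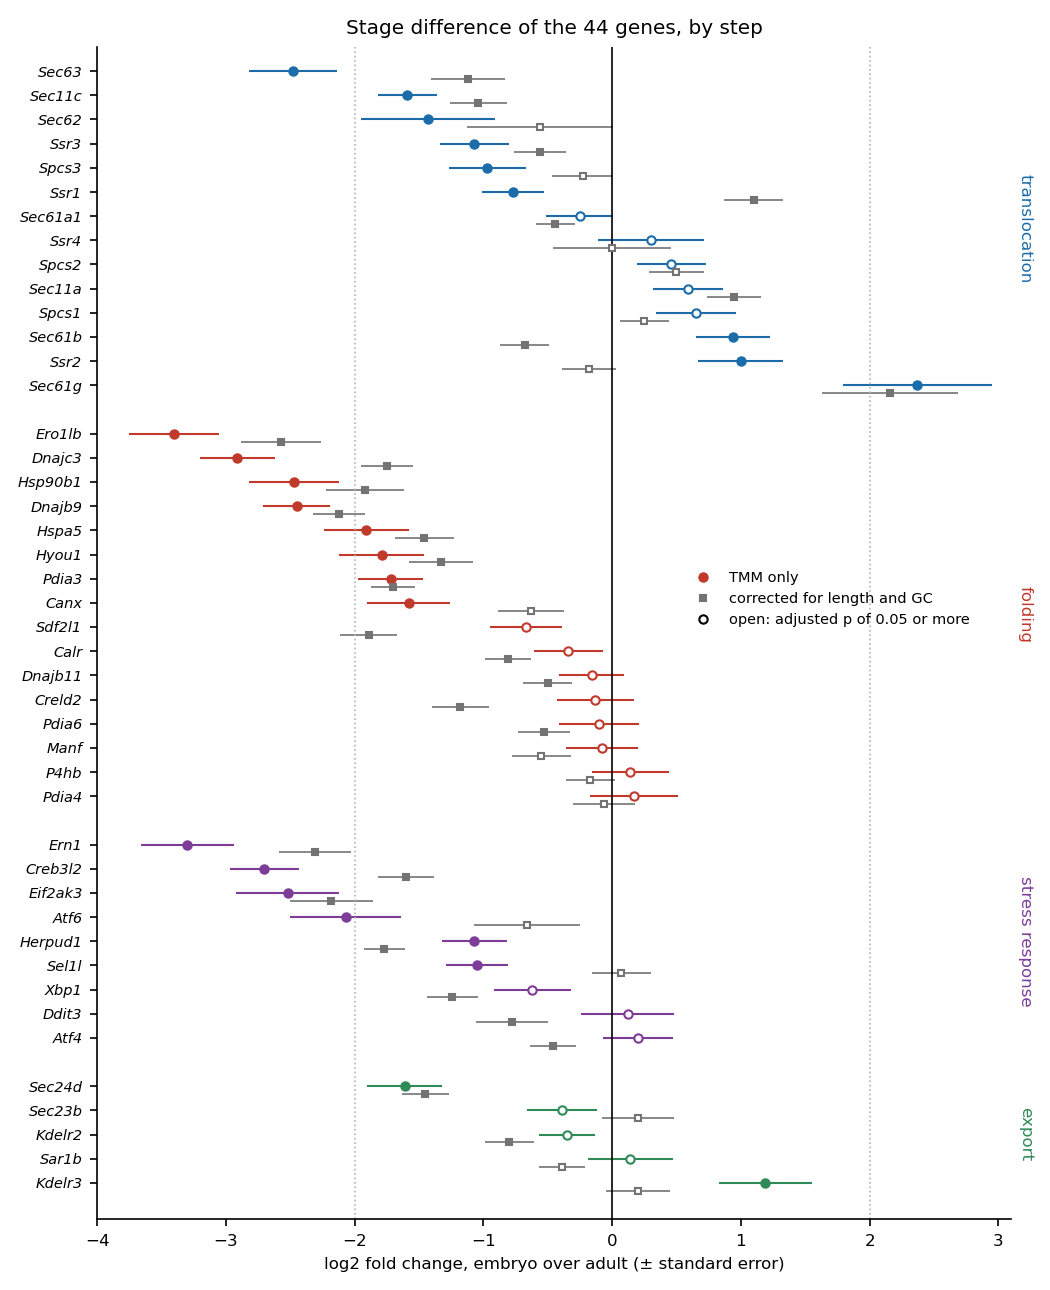
Log2 fold change of embryo over adult (x axis) of each of the 44 genes, by step, with its standard error, as coloured circles for the fit with TMM scaling, grey squares for the corrected fit, open symbols for an adjusted p of 0.05 or more and dotted lines at a fold change of 4. Values run from −3.40 (*Ero1lb*) to 2.37 (*Sec61g*), and signs differ between the fits for 11 genes, among them *Sec61b* and *Ssr1*.

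Together the 44 genes took 0.540% to 0.852% of the counts in the embryos, with the lowest shares in embryos 1 and 4, and 1.39% and 1.27% in adults 1 and 2. The 95% Wilson interval was 0.5372% to 0.5438% in embryo 4 and 1.264% to 1.272% in adult 2. Without embryos 1 and 4 the lowest share was 0.740%. The 7 hormone genes, of which *Prl* was the most abundant per kb in adult 1 and *Gh* in adult 2, took 17.3% and 18.3% of the adult counts and at most 0.157% of those of an embryo. In bulk tissue, fewer cells of a type and less RNA per cell cannot be told apart, and this holds for each difference below.

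Transcript length moved with the stage difference. Across the 44 members, log2 fold change and length of the longest transcript had a Spearman correlation of −0.738, against −0.388 across the 19371 genes tested, as a description of genes that share the same 9 libraries. All 11 members of 4000 bp or more were higher in the adult, where 48.0% of all genes of that length were. Among the 11 members under 2000 bp, 4 were higher in the embryo and 1, *Herpud1*, was higher in the adult, against 37.5% and 11.3% of all genes of that length. The 22 members in between held 9 that were higher in the adult and none higher in the embryo, against 23.0% and 24.5%. These length classes were chosen after values were seen.

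A second fit used offsets per library for the length and GC content of each gene's longest annotated transcript. Which transcripts of a gene were present was not measured, so its values rest on that choice, as do levels per kb. This second fit, called the corrected fit here, was read beside the first. In it the correlation with length was −0.206 across the members and 0.0572 across all genes, and the number of members higher in the adult was 26, against 23.6% of all genes. There were 3 members higher in the embryo (*Sec61g*, *Ssr1* and *Sec11a*), against 24.9% of all genes. Past a fold change of 4, the corrected fit called 4 members higher in the adult (12.3% of all genes) and 1 higher in the embryo (8.66% of all genes). The median over the members was −0.65, against 0.05 over all genes. In both fits 15 members were higher in the adult, against 3543 of the 19371 genes tested. Higher in the embryo in both fits was 1 member, *Sec61g*, against 3424 of all genes. The fits called 2 members in opposite directions, *Sec61b* (0.94, corrected −0.68) and *Ssr1* (−0.77, corrected 1.10), as they did 81 of all genes. Of the members higher in the adult in the corrected fit, 11 had not been so in the first, *Sec61b* among them, against 1031 of all genes.

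**Figure D2:**
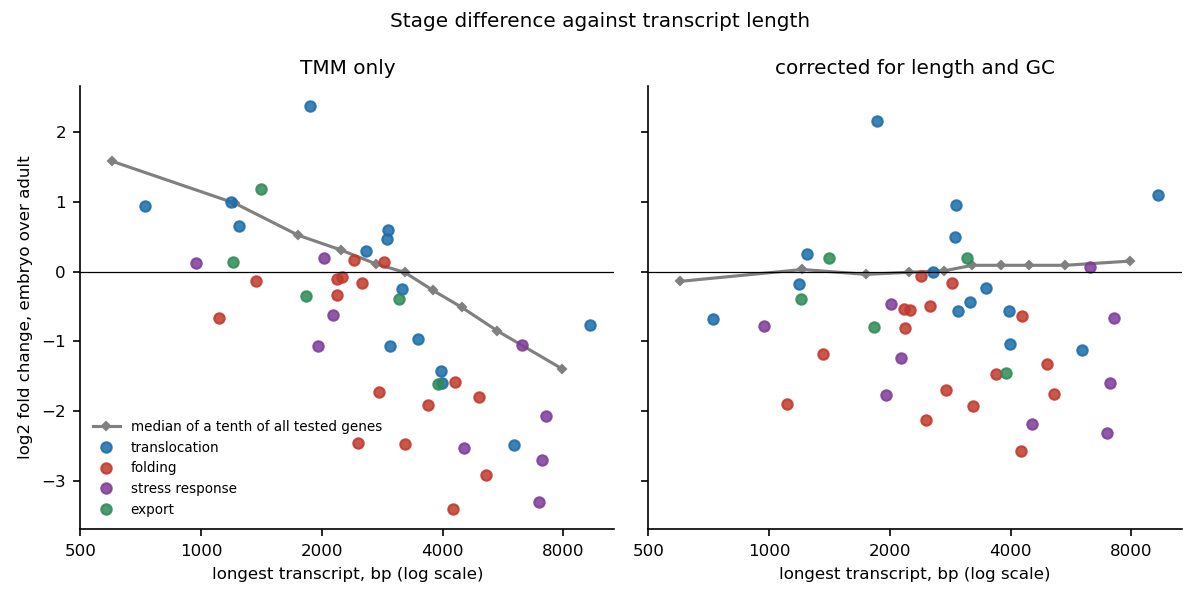
Log2 fold change of embryo over adult (y axis) against the length of the longest transcript in bp (x axis, log scale), before (left) and after (right) correction of each library for length and GC, with a point for each of the 44 genes, coloured by step, and a grey line through the medians of 10 equal groups of all tested genes. Folding and stress response genes lie mostly below the grey line in both panels.

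Single libraries showed the same slope against the adults to different degrees. The Spearman correlation between length and the log2 ratio of a library to the adult mean was −0.433 in embryo 6 and −0.272 in embryo 7, the strongest and weakest of the embryos, and −0.0575 and 0.0575 in adults 1 and 2. Members of 4000 bp or more had a median log2 ratio of −1.76 in embryo 7 and −2.83 in embryo 3, the extremes among the embryos. What set the slope apart between these libraries was not tested. The labels give no batch, so that a batch that followed the stages and the stage itself cannot be told apart.

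Translocation genes were called in both directions. The step had 6 of 14 genes higher in the adult (42.9%, against 27.4% of all genes), 3 higher in the embryo (21.4%, near the 24.0% of all genes) and 5 not called, and a median of 0.03 that became −0.20 in the corrected fit, −0.22 with library size alone and −0.11 without adult 2. The corrected fit called 5 of its genes higher in the adult (35.7%, against 23.6% of all genes) and 3 higher in the embryo (21.4%, near the 24.9% of all genes). Within the step, log2 fold change and length had a Spearman correlation of −0.868 (n = 14 genes), which was −0.266 in the corrected fit.

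The Sec61 channel is built from 3 subunits, of which *Sec61b* and *Sec61g* were called higher in the embryo and *Sec61a1* was not called, while in the corrected fit *Sec61g* alone was higher in the embryo. *Sec61g* encodes the small gamma subunit (chromosome 11, 16500530 to 16508484 in GRCm38, minus strand) and had 148, 218 and 543 CPM as the lowest, median and highest embryo, and 66.0 and 54.9 CPM in the adults. Embryos 1, 4 and 6 were at 475 to 543 CPM and the other embryos at 148 to 218 CPM, all above both adults. Its log2 fold change was 2.37 (standard error 0.58, edgeR adjusted p = 0.00352), 2.16 in the corrected fit (adjusted p = 0.00556) and 1.97 without embryos 1 and 4 (adjusted p = 0.00300). The correction took its length as 1862 bp, that of its longest annotated transcript, and no shorter length was tried. Of the 75 bp windows of its transcript, 19.4% were also found base for base in transcripts of other genes or pseudogenes, so its count leaves out pairs that align to more than 1 place. *Sec61b*, the beta subunit and the shortest transcript of the members (723 bp), had 149, 233 and 269 CPM in the embryos against 140 and 94.5 CPM, and the lowest embryo was close to adult 1. Its log2 fold change of 0.94 (standard error 0.29, edgeR adjusted p = 0.0155) became −0.68 (adjusted p = 0.0107) in the corrected fit, and its call was lost without adult 2 or with library size alone. *Sec61a1*, the alpha subunit that forms the pore, had 140, 191 and 222 CPM against 236 and 203 CPM. The groups overlapped, the log2 fold change was −0.25 (edgeR adjusted p = 0.439), and it was −0.44 (adjusted p = 0.0329) in the corrected fit. Per kb, the mean embryo level was 58.0 CPM per kb for *Sec61a1*, 312 for *Sec61b* and 168 for *Sec61g*, and the mean adult level was 69.1, 162 and 32.5 CPM per kb. With merged exon lengths these were 27.3, 177 and 127 in the embryo and 32.5, 92.1 and 24.5 CPM per kb in the adult.

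*Sec63*, a channel partner whose J domain recruits the chaperone encoded by *Hspa5*, had 10.2, 17.4 and 27.5 CPM in the embryos, against 111 and 97.8 CPM in the adults. All embryos were far below both adults, with embryos 1 and 4 among the highest. The log2 fold change was −2.48 (standard error 0.34, edgeR adjusted p = 5.7e-05), −1.12 (adjusted p = 0.00764) in the corrected fit and −2.72 without embryos 1 and 4. *Sec62*, which works with it in entry after translation, had 24.6, 46.2 and 143 CPM against 161 and 176 CPM. Embryos 1 and 4, at 143 and 111 CPM, were near the adults, while the other embryos were at 24.6 to 47.7 CPM. Its log2 fold change was −1.43 (standard error 0.52, edgeR adjusted p = 0.0312) with all embryos and −2.18 (adjusted p = 4.2e-05) without embryos 1 and 4. The corrected value was −0.56 (adjusted p = 0.435), and the call was also lost without embryo 3, embryo 6, embryo 7, adult 1 or adult 2.

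The translocon-associated protein complex, 4 subunits that sit beside the channel and aid the entry of some signal peptides, had 2 genes higher in the adult (50.0%, against 27.4% of all genes) and 1 higher in the embryo (25.0%, near the 24.0% of all genes). The corrected fit had 1 of each (25.0%, near the 23.6% and 24.9% of all genes). *Ssr3*, the gamma subunit, was lower in all embryos (159, 203 and 312 CPM) than in the adults (522 and 378 CPM), with a log2 fold change of −1.07 (edgeR adjusted p = 0.00482) and a corrected value of −0.56 (adjusted p = 0.0325). Its call was lost without adult 1. *Ssr1*, the alpha subunit and the longest transcript of the members (9333 bp), had 146, 162 and 209 CPM against 326 and 251 CPM. These groups did not overlap, yet the log2 fold change of −0.77 (edgeR adjusted p = 0.0157) became 1.10 (adjusted p = 0.00228) in the corrected fit, and its call was lost without adult 1. *Ssr2*, the beta subunit with a transcript of 1189 bp, had 261, 438 and 541 CPM against 254 and 166 CPM. Its lowest embryo was 7, just above adult 1, and the log2 fold change of 1.0 (edgeR adjusted p = 0.0189) was −0.18 (adjusted p = 0.508) in the corrected fit, with the call also lost without adult 2 or with library size alone. *Ssr4*, the delta subunit, overlapped between the stages, with a log2 fold change of 0.30 with all embryos and 0.02 without embryos 1 and 4.

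Signal peptidase has a pair of alternative catalytic subunits. *Sec11c*, which encodes the first, had 17.6, 19.1 and 25.4 CPM in the embryos against 62.0 and 56.6 CPM in the adults. All embryos were below both adults, and the log2 fold change was −1.59 (standard error 0.23, edgeR adjusted p = 7.7e-05), with a corrected value of −1.04 (adjusted p = 0.00220). *Sec11a*, its paralog, had 134, 147 and 234 CPM in the embryos against 106 and 105 CPM in the adults. All embryos were above both adults, but the log2 fold change of 0.59 (standard error 0.27, edgeR adjusted p = 0.0797) did not pass, while the corrected value of 0.95 (adjusted p = 0.00325) did. In CPM per kb, *Sec11c* made up 7.36% to 9.14% of the pair in the embryos, against 30% and 28.4% in the adults. The accessory subunits gave log2 fold changes of 0.65 for *Spcs1*, 0.46 for *Spcs2* and −0.97 for *Spcs3*. Of these, *Spcs3* was called (edgeR adjusted p = 0.0154), a call lost in the corrected fit (−0.23, adjusted p = 0.460) and without adult 1 or adult 2.

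**Figure D3:**
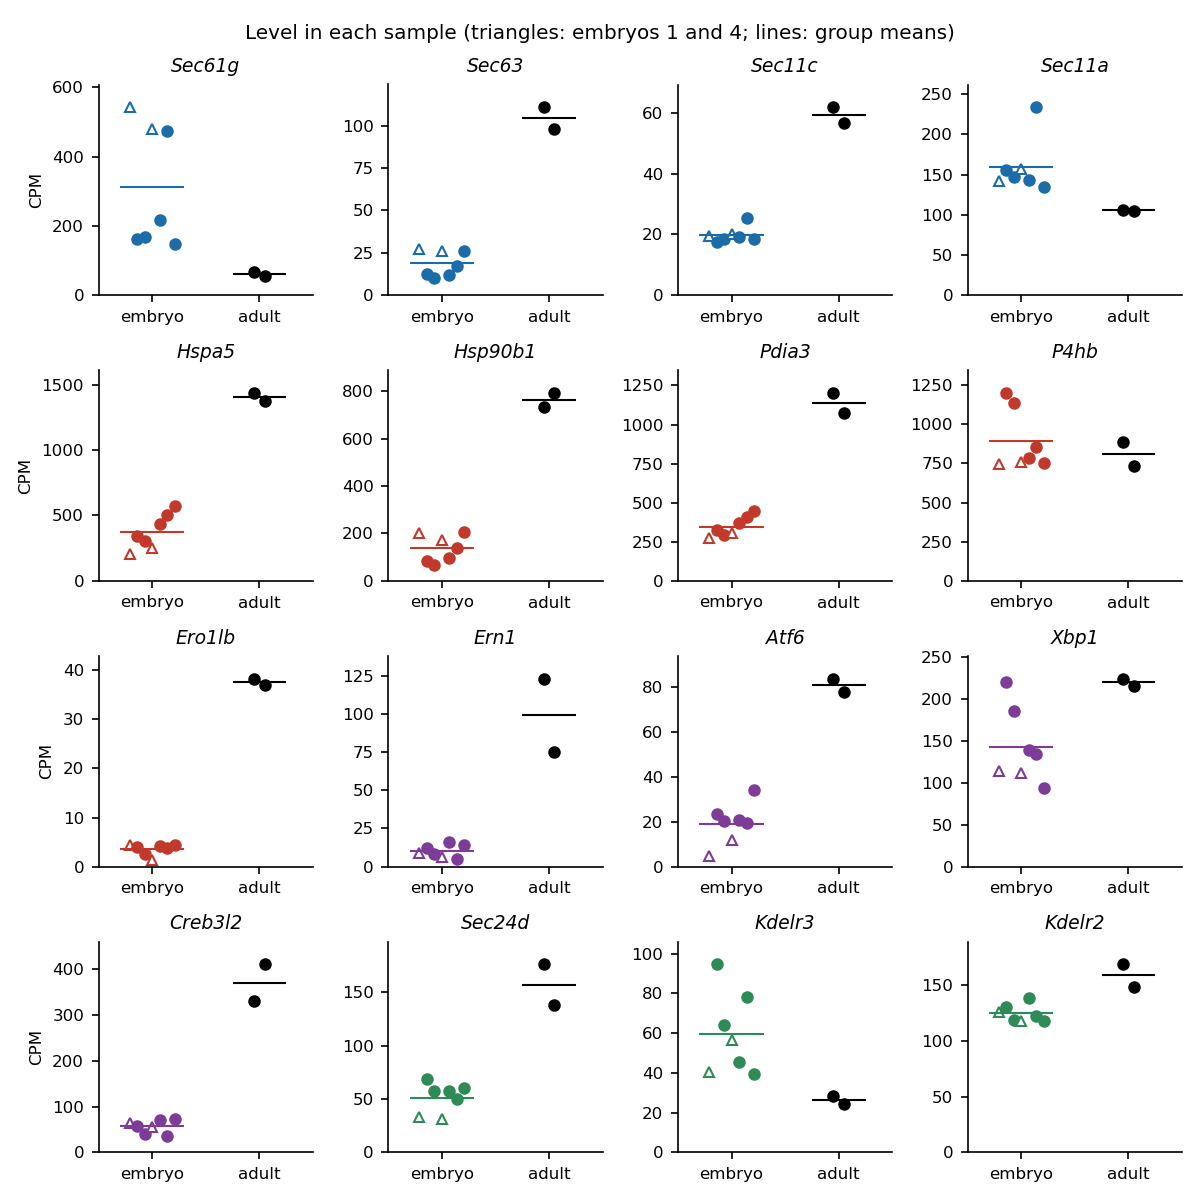
CPM (y axis, from 0) of 16 of the genes in each of the 7 embryos and 2 adults, with lines at the group means and open triangles for embryos 1 and 4. *Hspa5*, *Hsp90b1*, *Ero1lb*, *Ern1* and *Creb3l2* show wide gaps between the stages, while *P4hb* and *Xbp1* overlap.

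Folding genes were higher in the adult or not called. The step had 8 of 16 genes higher in the adult (50.0%, against 27.4% of all genes), none higher in the embryo, and a median of −1.13. In the corrected fit 12 were higher in the adult (75.0%, against 23.6% of all genes) and the median was −1.25. Log2 fold change and length had a Spearman correlation of −0.615 (n = 16 genes), which was −0.250 in the corrected fit.

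*Hspa5* encodes BiP, the Hsp70 chaperone of the compartment (chromosome 2, 34771970 to 34777547 in GRCm38, plus strand). It had 203, 345 and 569 CPM as the lowest, median and highest embryo and 1437 and 1377 CPM in the adults. Every embryo was below every adult, and embryos 1 and 4 were the lowest. The log2 fold change was −1.91 (standard error 0.33, edgeR adjusted p = 3.3e-04), a level 3.76 times as high in the adult. It was −1.46 (adjusted p = 2.9e-04) in the corrected fit and −1.67 without embryos 1 and 4. *Hsp90b1*, which encodes the Hsp90 chaperone GRP94, had 66.8, 137 and 206 CPM against 732 and 793 CPM. Again no embryo reached an adult, and the log2 fold change was −2.47 (standard error 0.35, edgeR adjusted p = 7.8e-05) with a corrected value of −1.92.

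The other chaperones fell into a called and an uncalled set. *Dnajc3*, a J-domain co-chaperone, had 14.3, 26.4 and 35.5 CPM in the embryos against 191 and 174 CPM in the adults, a log2 fold change of −2.91 (edgeR adjusted p = 3.7e-06; corrected −1.75). *Dnajb9*, another J-domain protein, which also represses the sensor IRE1, had 24.8, 33.2 and 55.3 CPM against 190 and 180 CPM, a log2 fold change of −2.45 (edgeR adjusted p = 7.2e-06; corrected −2.12). *Hyou1*, the nucleotide exchange factor of BiP, had 57.4, 128 and 175 CPM against 412 and 377 CPM, a log2 fold change of −1.79 (edgeR adjusted p = 5.0e-04; corrected −1.33). All 7 embryos were below both adults for *Dnajc3*, *Dnajb9* and *Hyou1*. The uncalled set held *Dnajb11*, *Manf*, *Creld2* and *Sdf2l1*, whose log2 fold changes were −0.16, −0.08, −0.13 and −0.67 and none of which was called. All 4 had lower values in the corrected fit, of −0.50, −0.55, −1.18 and −1.89, where *Manf* alone missed the threshold (adjusted p = 0.0617). *Sdf2l1*, for which all 7 embryos were below both adults, was near the threshold (edgeR adjusted p = 0.0609) and was also called with the size factors of DESeq2 (adjusted p = 0.0497), with library size alone (adjusted p = 0.0319) and with a filter of 10 counts in every sample (adjusted p = 0.0381).

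The lectin chaperones hold glycoproteins during folding. *Calr*, the soluble one, had 600, 823 and 904 CPM in the embryos against 998 and 919 CPM in the adults. The highest embryo was just below adult 2, and the log2 fold change of −0.34 (edgeR adjusted p = 0.311) did not pass, while the corrected value of −0.81 did (adjusted p = 0.00255). *Canx*, the membrane-bound one, had 103, 197 and 280 CPM against 582 and 534 CPM. Its log2 fold change was −1.58 (edgeR adjusted p = 0.00115), a call lost in the corrected fit (−0.63, adjusted p = 0.0648).

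The 5 genes of disulfide formation had log2 fold changes from −3.40 to 0.17. *Ero1lb* encodes an oxidase that regenerates protein disulfide isomerases and is known for its high expression in the pancreas (chromosome 13, 12565874 to 12611396 in GRCm38, plus strand). Embryos had 1.41, 4.05 and 4.47 CPM, and the adults had 38.3 and 36.9 CPM. The gap was wide, and its log2 fold change was −3.40 (standard error 0.35, edgeR adjusted p = 5.0e-06), the lowest among the 44 members, and −2.57 (adjusted p = 5.5e-05) in the corrected fit. A further 12.2% of the 75 bp windows of its transcript were shared with an unprocessed pseudogene. Its paralog *Ero1l* was also higher in the adult (log2 fold change −1.13, edgeR adjusted p = 0.0118), a call lost in the corrected fit (−0.11, adjusted p = 0.741), and *Ero1lb* made up 10.9% to 24.0% of the pair in the embryos, against 53.6% and 50.4% in the adults, in CPM per kb. *Pdia3*, the isomerase that works with both lectin chaperones, had 273, 328 and 444 CPM against 1203 and 1072 CPM. No embryo reached an adult, and the log2 fold change was −1.72 (standard error 0.25, edgeR adjusted p = 8.7e-05), a level 3.28 times as high in the adult, with −1.70 in the corrected fit. The isomerases *P4hb*, *Pdia4* and *Pdia6* overlapped between the stages, with log2 fold changes of 0.14, 0.17 and −0.10, and of −0.17, −0.06 and −0.53 in the corrected fit, where *Pdia6* was called higher in the adult (edgeR adjusted p = 0.0490). *P4hb* had 749, 786 and 1200 CPM against 888 and 731 CPM, and its highest embryo was 2.

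The promoters of the members were searched for the letters of known stress elements. RefSeq promoter windows of 300 bases, from 250 before to 50 after a gene's start (GRCm38.p6), were found for 36 of the 44 members. Windows were not found for *Sec61a1*, *Ssr2*, *Spcs3*, *Sec11c*, *Hyou1*, *Manf*, *Atf6* and *Kdelr2*. The element named ERSE, which is CCAAT, 9 bases of any kind and CCACG, searched on both strands, was present in 39 of 32851 windows of all genes (0.119%) and in 8 of the 37 windows of the members. All 8 genes were folding genes, namely *Hspa5*, *Hsp90b1*, *Calr*, *Canx*, *Pdia6*, *Dnajc3*, *Creld2* and *Ero1lb*. The element ERSE-II, which is ATTGG, 1 base of any kind and CCACG, was present in 12 windows of all genes (0.0365%), among them those of *Dnajb11* and *Herpud1*, and the element UPRE, TGACGTGG, in 222 (0.676%), among them those of *Sec24d* and *Kdelr3*. No member's window held more than 1 of these kinds of element, although ERSE and ERSE-II end in the same letters. The following stretches are shown because they hold ERSE in *Hspa5*, *Hsp90b1*, *Dnajc3* and *Ero1lb*, which were higher in the adult, and in *Calr* and *Pdia6*, which were not called, and ERSE-II in *Herpud1*, a gene of degradation. Each is read 5′ to 3′ on the strand of the gene, with the element in capitals, which is the reverse complement where it starts with CGTGG.
Hspa5 (chr2:34771995-34772073, plus strand): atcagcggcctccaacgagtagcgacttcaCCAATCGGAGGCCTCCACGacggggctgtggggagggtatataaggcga
Hsp90b1 (chr10:86705503-86705581, minus strand): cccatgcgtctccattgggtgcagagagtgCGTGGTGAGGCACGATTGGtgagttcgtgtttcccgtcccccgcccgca
Hsp90b1 (chr10:86705608-86705686, minus strand): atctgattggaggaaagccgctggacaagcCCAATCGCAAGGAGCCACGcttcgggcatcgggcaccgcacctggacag
Dnajc3 (chr14:118937797-118937875, plus strand): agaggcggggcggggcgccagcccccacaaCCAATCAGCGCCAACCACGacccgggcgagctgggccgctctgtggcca
Ero1lb (chr13:12565652-12565730, plus strand): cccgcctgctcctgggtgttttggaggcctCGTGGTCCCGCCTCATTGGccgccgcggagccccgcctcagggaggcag
Calr (chr8:84847045-84847123, minus strand): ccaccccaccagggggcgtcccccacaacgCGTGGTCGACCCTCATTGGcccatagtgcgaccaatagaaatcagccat
Pdia6 (chr12:17266461-17266539, plus strand): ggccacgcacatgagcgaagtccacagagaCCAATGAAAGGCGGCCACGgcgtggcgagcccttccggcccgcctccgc
Herpud1 (chr8:94386347-94386417, plus strand): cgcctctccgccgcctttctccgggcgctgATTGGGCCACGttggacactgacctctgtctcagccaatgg

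Distances are from the start of the RefSeq transcript, which in *Hspa5* lies inside the gene span given above from GENCODE. The first base of the element was 65 bases before that start in *Hspa5*, 105 in *Dnajc3*, 201 in *Ero1lb* and 162 in *Calr*, and *Hsp90b1* had 1 on each strand, at 107 and 212 bases. Among the 8 genes with ERSE, 5 were higher in the adult, against 27.4% of all genes, and 3 were not called. In the corrected fit 7 were higher in the adult, against 23.6% of all genes, and 1 was not called. Log2 fold changes of the 8 ran from −3.40 to −0.10, with a median of −1.75 and a corrected median of −1.32. Among the 28 members whose windows lacked ERSE, 12 were higher in the adult and 3 higher in the embryo (15 and 3 in the corrected fit), with a median of −0.51 and a corrected median of −0.53. The median transcript length was 3447 bp with ERSE and 2669 bp without. A match of letters is a description of the window and not evidence of binding.

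Stress response genes comprise sensors, the transcription factors they act through and degradation genes. The step had 6 of 9 genes higher in the adult (66.7%, against 27.4% of all genes), none higher in the embryo, and a median of −1.07. In the corrected fit 7 were higher in the adult (77.8%, against 23.6% of all genes) and the median was −1.24. The 3 sensors of unfolded protein were past a fold change of 4, and 2 of them were so in the corrected fit. *Ern1*, which encodes IRE1, the sensor that splices *Xbp1* mRNA (chromosome 11, 106394650 to 106487852 in GRCm38, minus strand), had 4.85, 9.01 and 16.0 CPM in the embryos, against 123 and 75.0 CPM in the adults. Both adults were far above the embryos although they differed from each other, and the log2 fold change was −3.30 (standard error 0.36, edgeR adjusted p = 7.6e-06), with −2.31 in the corrected fit. *Eif2ak3* encodes PERK, the kinase that slows translation under stress, and had 3.1, 7.23 and 15.2 CPM against 52.9 and 50.0 CPM. No embryo came near the adults, with a log2 fold change of −2.52 (edgeR adjusted p = 1.8e-04) and −2.18 in the corrected fit. *Atf6*, a sensor that is cut in the Golgi to free a transcription factor, had 4.76, 20.2 and 34.2 CPM against 83.8 and 77.9 CPM. Embryo 1 was the lowest and embryo 7 the highest, a 7.19-fold range that was the widest of all members among the embryos. Its log2 fold change was −2.07 (edgeR adjusted p = 0.00121) with all embryos, −1.75 (adjusted p = 1.8e-04) without embryos 1 and 4, and −0.66 (adjusted p = 0.197) in the corrected fit.

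Among transcription factors of the response, *Creb3l2*, which is cut in the Golgi like ATF6 and is known for its role in the secretion of cartilage matrix, was the 1 called. It had 35.5, 58.6 and 72.4 CPM in the embryos, against 329 and 410 CPM in the adults. The embryos were all below, and the log2 fold change was −2.70 (standard error 0.27, edgeR adjusted p = 3.7e-06) and −1.60 in the corrected fit. *Xbp1*, the target of IRE1, had 94.1, 134 and 220 CPM against 224 and 215 CPM. Embryo 2 reached the adult level, and the log2 fold change of −0.62 (edgeR adjusted p = 0.0959) passed in the corrected fit (−1.24, adjusted p = 3.4e-04) and without embryo 2 (−0.76). Gene counts do not separate spliced from unspliced *Xbp1*. *Atf4*, the factor downstream of PERK, had 110, 163 and 188 CPM against 129 and 135 CPM, and *Ddit3*, which encodes the death-associated factor CHOP, had 5.17, 9.74 and 13.8 CPM against 8.56 and 9.31 CPM. The stages overlapped for both genes, with log2 fold changes of 0.20 and 0.12 that became −0.46 (edgeR adjusted p = 0.0452) and −0.78 (adjusted p = 0.0373) in the corrected fit. *Herpud1* and *Sel1l* act in the degradation of misfolded proteins. For *Herpud1*, the embryos had 36.6, 48.3 and 65.3 CPM and the adults 96.8 and 111 CPM, with a log2 fold change of −1.07 (edgeR adjusted p = 0.00306) that was larger in the corrected fit (−1.77, adjusted p = 6.8e-06), and its call was lost without adult 2. For *Sel1l*, with 52.4, 65.5 and 83.2 CPM against 141 and 136 CPM, a log2 fold change of −1.05 (edgeR adjusted p = 0.00209) became 0.07 in the corrected fit.

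Export was the step with the fewest calls. Of its 5 genes, 1 was higher in the adult, 1 was higher in the embryo (20% each, near the 27.4% and 24.0% of all genes) and 3 were not called, with a median of −0.35. In the corrected fit 2 were higher in the adult (40.0%, against 23.6% of all genes) and the median was −0.39. *Sec24d*, a cargo-binding subunit of the COPII coat, had 31.7, 57.3 and 69.1 CPM in the embryos against 176 and 138 CPM in the adults. Embryos 1 and 4 were the lowest, and the log2 fold change was −1.61 (standard error 0.29, edgeR adjusted p = 4.0e-04), −1.39 without them and −1.45 in the corrected fit. *Sec23b*, its partner in the inner coat, overlapped between the stages (−0.39, edgeR adjusted p = 0.247). *Sar1b*, the GTPase that starts coat assembly, also overlapped, at 90.2 to 204 CPM in the embryos against 105 and 108 CPM, with embryos 4 and 6 at 150 and 204 CPM and the other embryos at or under 99.9 CPM.

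KDEL receptors return escaped chaperones from the Golgi. *Kdelr3* had 39.3, 56.4 and 94.6 CPM in the embryos against 28.3 and 24.3 CPM in the adults. Every embryo was above both adults, and its log2 fold change was 1.19 (standard error 0.36, edgeR adjusted p = 0.0144), but the corrected value was 0.20 (adjusted p = 0.524), and the call was also lost without adult 1 or adult 2 and with library size alone. *Kdelr2* was the steadiest member among the embryos, at 118 to 139 CPM with a coefficient of variation of 6.26%. Its adult levels were 169 and 149 CPM, and the log2 fold change of −0.35 (edgeR adjusted p = 0.193) became −0.80 (adjusted p = 0.00391) in the corrected fit.

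**Figure D4:**
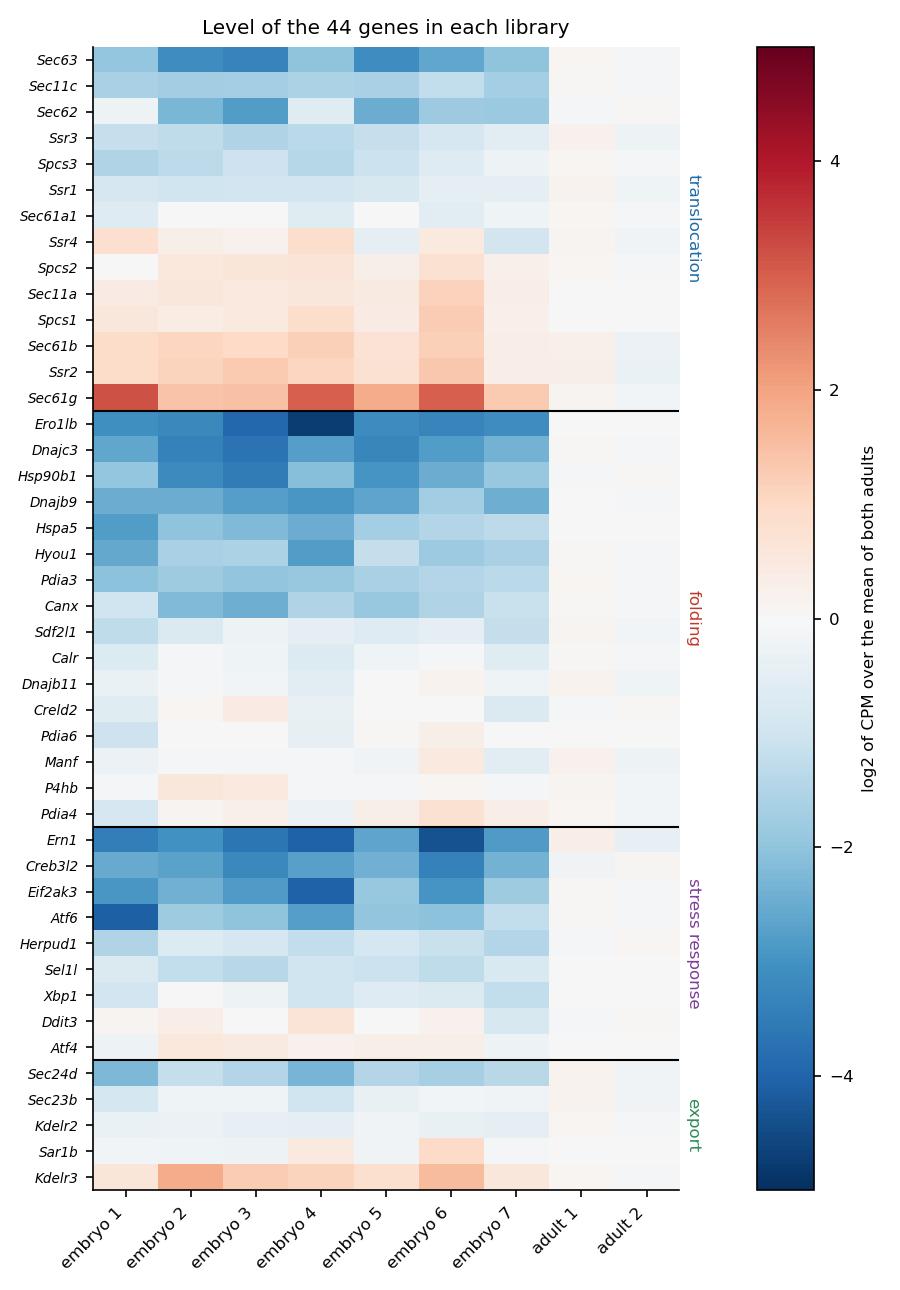
Log2 of the CPM of each of the 44 genes (down the side, by step) in each library (columns) over the mean of both adults, with blue for lower and red for higher levels than in the adults. Embryos 1 and 4 differ from the other embryos in *Sec62*, *Hyou1* and *Sec24d*, and *Ero1lb*, *Ern1*, *Dnajc3* and *Creb3l2* are blue in all 7 embryos.

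Levels of different genes are compared per kb of transcript. In CPM per kb, the highest embryo means were 355 for *Ssr2*, 346 for *Calr*, 312 for *Sec61b* and 311 for *P4hb*. With merged exon lengths the order turned, to 311 CPM per kb for *P4hb*, 262 for *Calr*, 226 for *Ssr2*, 206 for *Spcs1* and 177 for *Sec61b*. The 5 highest adult means in CPM per kb were all of folding genes, with 439 for *Calr*, 411 for *Pdia3*, 383 for *Hspa5*, 283 for *P4hb* and 237 for *Hsp90b1*, and with merged exon lengths 333, 362, 333, 283 and 189 in the same order of genes. By the longest transcript, *Hsp90b1* had rank 22 of 44 in the embryo and rank 5 in the adult, and *Sec61g* went from rank 6 to rank 33. *Ero1lb* had the lowest level at both stages by the longest transcript, at 0.837 and 8.86 CPM per kb. These levels were not corrected for the slope with length.

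Pairs of related genes gave a comparison in which both genes come from the same library. Among 14 pairs of a member and a paralog, the share of the member in the CPM per kb of both separated the 7 embryos from both adults in 10. Levels of single genes separated the groups often as well, with all 7 embryos below both adults for 32.9% of all genes and above for 26.2%. Shares of other pairs of genes were not computed. The embryos were below the adults for 7 pairs. *Creb3l2* made up 39.2% to 66.4% of its sum with *Creb3l1* in the embryos, against 83.8% and 93.7% in the adults, a difference of −36.3 points that was −21.2 points with CPM corrected for length and GC. For *Sec24d* and *Sec24c* the share was 25.7% to 39.4% against 61.9% and 58.5%. For *Sdf2l1* and *Sdf2* it was 11.0% to 20.7% against 42.6% and 38.4%, where *Sdf2l1* was not called and *Sdf2* was higher in the embryo (log2 fold change 1.21, edgeR adjusted p = 0.00353). In the corrected fit *Sdf2l1* was higher in the adult (−1.89, adjusted p = 4.4e-05) and *Sdf2* was not called (0.14, adjusted p = 0.566). For *Atf6* and *Atf6b* it was 2.22% to 16.9% against 33.9% and 37.2%, a difference of −27.3 points that was −7.60 points with CPM corrected for length and GC content. *Sec61a1* was 65.1% to 79.7% of its sum with *Sec61a2* in the embryos, against 86.7% and 83.0% in the adults. The embryos were above the adults for 3 pairs. *Kdelr3* was 29.3% to 48.4% of its sum with *Kdelr2* against 17.8% and 17.4%, and 18% to 32.8% of its sum with *Kdelr1* against 14.9% and 15.7%. *Manf* was over 99% of its sum with *Cdnf* in every library. The group means differed by 0.536 points, and the lowest embryo and both adults were all at 99.2% when rounded. The shares of *Sar1b*, *Sec23b*, *Creld2* and *Herpud1* overlapped. The shares are given as a description, with no test.

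**Figure D5:**
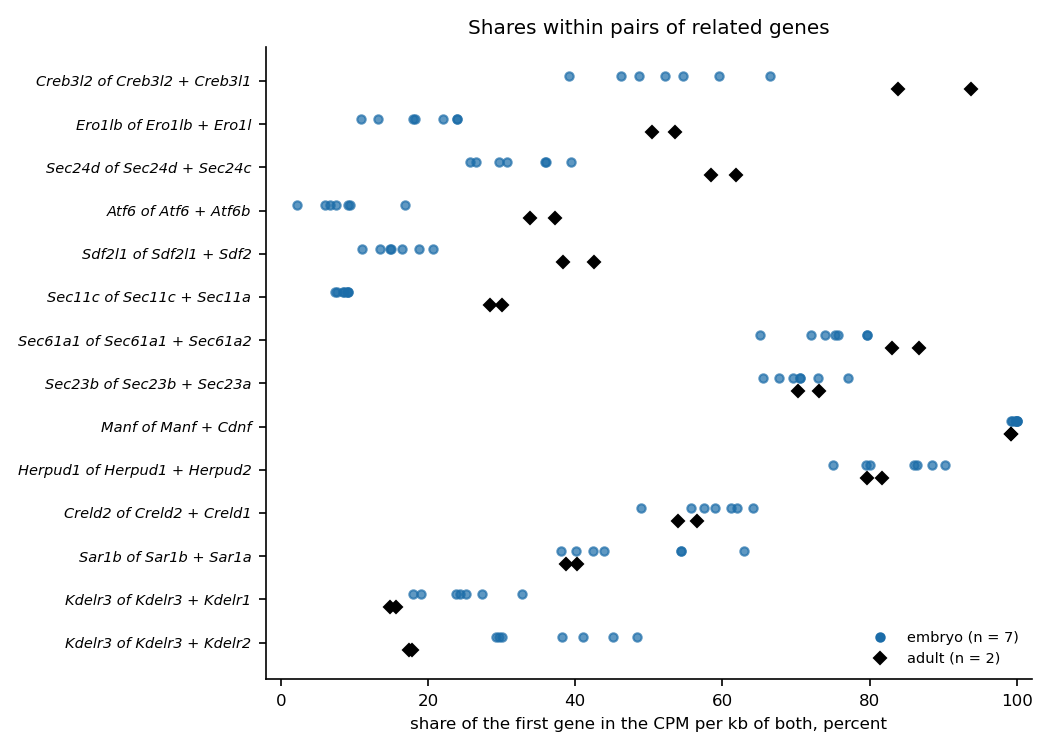
Share of the first gene in the CPM per kb of both genes, in percent (x axis), for 14 pairs of related genes, with a circle for each of the 7 embryos and a diamond for each of the 2 adults. The shares of *Creb3l2*, *Ero1lb*, *Sec24d*, *Atf6*, *Sdf2l1*, *Sec11c* and *Sec61a1* are lower in every embryo than in either adult, and those of *Kdelr3* are higher.

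Other genes of the pathway, from a list of 155 named by function, gave shares nearer to those of all genes. Of the 154 that were tested, 55 were higher in the adult (35.7%) and 29 higher in the embryo (18.8%), with a median of −0.31, and the corrected fit gave 45 and 20 with a median of −0.22, of which 31 and 12 were called in both fits. Beside the 27.4% and 24.0% of all genes, signal recognition and other translocon genes had 5 of 23 higher in the adult (21.7%) and 10 higher in the embryo (43.5%). The corrected fit had 4 (17.4%) and 6 (26.1%), beside 23.6% and 24.9% of all genes in that fit, so that the share higher in the embryo was near that of all genes. Of these, 3 and 4 were called in both fits. The oligosaccharyltransferase genes, which attach glycans, had 3 of 12 in each direction (25.0%), and 1 in each in the corrected fit. Other folding enzymes had 16 of 38 higher in the adult (42.1%) and 8 higher in the embryo (21.1%), with 11 and 4 in the corrected fit. Degradation genes had 8 of 21 (38.1%) and 3 (14.3%), with 8 and 3 after correction, of which 6 and 1 were called in both fits. Stress response genes had 6 of 20 (30%) and 1 (5%), which were 7 and 2 after correction. Export and retrieval genes had 17 of 40 (42.5%) and 4 (10.0%), which were 14 and 4 after correction.

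*Bhlha15*, which encodes MIST1, a transcription factor of professional secretory cells, had 0.806, 1.69 and 3.05 CPM in the embryos, against 33.2 and 45.8 CPM in the adults. All embryos were below, and the log2 fold change was −4.58 (standard error 0.40, edgeR adjusted p = 1.3e-06) and −4.63 in the corrected fit. *Uggt2*, a glucosyltransferase of glycoprotein quality control, had a median of 6.29 CPM in the embryos against 84.8 and 78.7 CPM, a log2 fold change of −3.74 (edgeR adjusted p = 3.7e-07; corrected −2.15). *Mia3*, the receptor that loads bulky cargo at exit sites, had a median of 18.4 CPM against 123 and 121 CPM, a log2 fold change of −2.73 (edgeR adjusted p = 2.1e-05; corrected −2.48). In the other direction, *Ppib*, a prolyl isomerase of collagen folding, had 349, 633 and 754 CPM against 108 and 99.2 CPM, a log2 fold change of 2.51 (edgeR adjusted p = 9.3e-05; corrected 2.55). *Fkbp10*, a collagen chaperone, had a median of 141 CPM against 28.3 and 23.3 CPM, a log2 fold change of 2.49 (edgeR adjusted p = 4.4e-05; corrected 2.10). The remaining genes named from the list were *Ost4*, *Tmem258* and *Asna1*, higher in the embryo with log2 fold changes of 2.13, 2.06 and 1.98 (corrected 1.01, 0.84 and 0.84, where the call of *Tmem258* was lost, with adjusted p = 0.0619), and *Sec16b* and *Tmx4*, higher in the adult with −2.92 and −2.47 (corrected −2.46 and −1.15). Beside these, 4 of 6 connective tissue markers, with *Col3a1* the most abundant per kb in the embryos and *Col1a2* in the adults, were higher in the embryo, with sums of 658 to 2334 CPM against 717 and 459 CPM, and their part in the values of *Ppib* and *Fkbp10* was not tested.

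Cell type markers moved with the stages as well. Of the 9 markers of Rathke's pouch, 6 were higher in the embryo and 1, *Sox2*, was higher in the adult, with *Pitx1* the most abundant per kb in the embryos and adult 1 and *Lhx3* in adult 2, and sums of 806 to 1889 CPM against 745 and 671 CPM. The 7 hormone genes summed to 870 to 1920 CPM in the embryos, against 152482 and 160059 CPM in the adults, and 6 of them were higher in the adult, with *Cga* the most abundant per kb in the embryos, so that both tissues carried the markers of their label. Red blood cell markers were higher in the embryo for 6 of 7 genes. Markers of cartilage and head mesenchyme were higher in the embryo for 3 of 4 tested genes and higher in the adult for 1, *Prrx1* (list sums of 190 to 412 CPM against 50.5 and 54.2 CPM, with *Matn1* at 0 in both adults). The most abundant of them per kb was *Col2a1* in the embryos and *Prrx1* in the adults. Endothelial markers were higher in the embryo for 3 of 5 (133 to 469 CPM against 160 and 103 CPM), with *Plvap* the most abundant per kb in both adults and *Plvap*, *Emcn*, *Pecam1* or *Cdh5* in single embryos. Macrophage markers had 2 of 5 higher in the embryo and 1 higher in the adult (92.7 to 230 CPM against 71.4 and 111 CPM), with *C1qb* the most abundant per kb except in adult 1, where it was *C1qa*. Those of the posterior lobe and ventral diencephalon had 2 of 5 higher in the embryo and 3 higher in the adult (54.5 to 152 CPM against 33.7 and 42.4 CPM), with *Avp* at 0 counts in all embryos. The most abundant of these per kb was *Rax* in the embryos, *Col25a1* in adult 1 and *Avp* in adult 2. Neuronal markers, with *Stmn2* the most abundant per kb in the embryos and *Snap25* in the adults, had 2 of 4 higher in the adult (20.7 to 124 CPM against 240 and 261 CPM), with *Neurod6* at 0 in all libraries. The neuronal markers called were *Slc17a6* and *Snap25*, the latter with 195 and 212 CPM of the sums in adults 1 and 2, while *Elavl3* and *Stmn2* were not called. Plasma cells, which are rich in endoplasmic reticulum, had 2 of 3 tested markers higher in the adult. *Jchain* and *Igkc* were at most 0.994 and 1.67 CPM in any library, while *Ighm* was at 8.18 to 20.8 CPM in the embryos and 4.95 and 10.4 CPM in adults 1 and 2. It was the most abundant marker of the list per kb except in adult 1, where that was *Igkc*, and the list's sum was 8.47 to 21.2 CPM in the embryos, against 7.61 and 12.3 CPM in the adults. The part of the other cell types in the differences of the 44 genes was not tested.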

How the data were processed

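RNA was measured by sequencing in 7 embryo and 2 adult samples, grouped by their labels. The authors prepared directional poly(A) libraries, trimmed 75 bp read pairs with Trimmomatic 0.39 and aligned them with STAR 2.7.5b to mm10 (versions per the submitters' processing notes), and the deposited files hold raw counts of uniquely aligned read pairs per gene, without normalisation. The strand-specific count was used, and 55450 of 55450 identifiers were found in GENCODE M21. Genes whose counts averaged 5 or more were tested with edgeR 4.0.16 in R 4.3.3 (TMM, quasi-likelihood, stage as the only term), checked on simulated counts. DESeq2 1.42.0 was an alternative, beside other scalings, filters and strands, left-out samples, a replicate block, and library-wise splines on length and GC content (4 degrees of freedom, genes averaging 50 or more counts). Tables and figures used Python 3.11.15 with pandas 2.3.3, scipy 1.17.1 and matplotlib 3.10.9. A length is that of the longest annotated transcript.

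The members and lists were chosen with earlier results of these data known. All members and markers may be named, as well as paralogs and, of the wider pathway list, the 5 genes in each direction with the largest log2 fold change among those called, averaging 100 or more counts and no overlap between the groups. Overlapping genes and near-identical copies can take part of a count. Shares of counts and a floor of 3 counts (at most 0.220 CPM in any library) carry counting error only.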

Additional observations from a re-analysis of the deposited data

Results flagged for a closer look

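Embryo 6 stood far above the other embryos for 4 members. Its *Sec11a* level was 234 CPM, where the nearest embryo had 157 CPM. Its *Sec11c* level was 25.4 CPM, with the nearest at 20 CPM. For *Dnajb9* it had 55.3 CPM against 33.7 CPM in the nearest embryo, and for *Manf* 327 CPM against 229 CPM. In each case the gap to the nearest embryo was a large part of the whole range of the 7 embryos. Chance alone sets apart about 1 in 20 such groups, and 58 groups were looked at, the 44 genes and the 14 pair shares. In the same library the share of *Sec11c* in its sum with *Sec11a* was 7.36%, the lowest of the embryos. Pairs that align to more than 1 place made up 19.7% of this library, against 14.1% to 15.5% in embryos 2, 3, 5 and 7. Pairs counted on genes made up 73.9%, against 77.4% to 80% in those embryos. Its correlation with length, −0.433, was the strongest of the embryos. The part of these traits in the 4 levels was not tested.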

How the results depend on the processing

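Over 19 alternatives, 836 log2 fold changes of members were compared with the reported ones, of which 775 kept their direction and side of the threshold, 22 lost a call, 14 gained one and 25 changed sign. A change of sign was counted as that alone. With the length and GC correction it came with a lost call for *Ssr2* and *Sel1l*, and with a gained call for *Atf4* and *Ddit3*. Called in the same direction in all alternatives were 14 genes, of which 13 were higher in the adult. The matching share of all genes tested was not computed, so these counts have no background beside them. With library size alone the median of all genes moved from −0.04 to −0.26, members higher in the embryo were 1 in place of 4, step medians were −0.22 (translocation, 0.03 as reported), −1.36 (folding), −1.28 (stress response) and −0.56 (export), and signs changed for *Pdia4* (−0.03), *P4hb* (−0.07), *Atf4* (−0.02), *Ddit3* (−0.14) and *Sar1b* (−0.11), none of them called. With the length and GC correction, members past a fold change of 4 were 5 in place of 10, medians were −0.20 (translocation), −1.25 (folding) and −1.24 (stress response), and signs changed for *Sec61b* (−0.68), *Ssr1* (1.10), *Ssr2* (−0.18), *Ssr4* (−5.3e-04), *Pdia4* (−0.06), *P4hb* (−0.17), *Atf4* (−0.46), *Ddit3* (−0.78), *Sel1l* (0.07), *Sec23b* (0.20) and *Sar1b* (−0.39). Without embryos 1 and 4, the export median was −0.20, and *Pdia6* (0.10) and *Creld2* (0.02) changed sign. The cause of these shifts was not tested.

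A fold change threshold of 2 gave 22 members and 8960 genes, in place of 10 and 5001, as a lower threshold must give more, and a filter of 10 counts in every sample, which removes genes off at 1 stage, left 2634 genes past a fold change of 4. Replicate numbers only name animals: the deviations of embryo 1 and adult 1 had a correlation of 0.0348 across genes, and those of embryo 2 and adult 2 of 0.0279. Only the numbers 1 and 2 occur at both stages. The stage difference with a replicate block therefore rests on embryos 1 and 2 and both adults alone. With a replicate block, the members higher in the adult were 22, those higher in the embryo 4 and those past a fold change of 4 12, the genes past it 4236, the step medians −0.02 (translocation), −1.29 (folding), −1.08 (stress response) and −0.30 (export), and *Pdia4* (−0.34) and *Sar1b* (−0.19) changed sign, while *Sdf2l1* (−0.99) gained a call.

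Leaving out each sample in turn gave 17 to 22 members higher in the adult, 1 to 4 higher in the embryo (1 without adult 2), 9 to 11 past a fold change of 4, 3683 to 5290 genes past it, and medians of −0.11 to 0.15 (translocation), −1.24 to −1.04 (folding), −1.19 to −1.01 (stress response) and −0.45 to −0.23 (export). Changes of sign were *Pdia6* (0.05) and *Manf* (0.01) without embryo 1, *Dnajb11* (0.03) and *Manf* (0.16) without adult 1, and *P4hb* (−0.01) without adult 2, their ranges being −0.14 to 0.05, −0.30 to 0.16, −0.35 to 0.03 and −0.01 to 0.27 for *Pdia6*, *Manf*, *Dnajb11* and *P4hb*. With 1 adult left, its spread was taken from the embryos.

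Levels per kb with merged exon lengths moved by more than 1 SD in 49 of 88 cases. Pair shares, under settings chosen after seeing the data, moved by more than 1 SD in 1 of 14 with merged exons, in none without embryos 1 and 4, and in 6 with the length and GC correction, where the differences of *Creld2* (3.03 to −6.34 points) and *Herpud1* (3.01 to −9.55 points), which overlapped between the stages, changed sign. The adult spread rests on 2 mice, and stage, dissection and library slope with length cannot be told apart.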
